A study of Homo sapiens with 4 samples.

Results

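The 10 genes described here encode core parts of Notch signalling: the receptors NOTCH1, NOTCH2 and NOTCH3, the ligands JAG1 and JAG2, the target HES1, the coactivators MAML1, MAML2 and MAML3, and the inhibitor NUMB. They were taken by name, and every N6-methyladenosine (m6A) peak listed on their RefSeq transcripts was kept. Of the 10 genes, 9 carried a peak, with 21 of 23623 peaks in the Ctrl list and 19 of 23134 in the Cas list. No row of the lists used here named a NOTCH1 transcript (gene at chr9:136494433-136546048, GRCh38.p14). Over the whole series 10931 genes had a peak in either list. The share of all annotated genes that this makes was not counted, so 9 of 10 has no level beside it.

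Notch receptors are single-pass membrane proteins that bind Jagged or Delta ligands on a neighbouring cell. Binding leads to cleavage, first outside and then within the membrane, and the freed intracellular part enters the nucleus, joins the DNA-binding protein RBPJ and recruits a Mastermind-like (MAML) coactivator to genes such as HES1. NUMB, an endocytic adaptor, antagonises the receptors. m6A is a methyl mark set on adenosines of messenger RNA, often in long exons and near stop codons, and it is known to affect RNA decay and translation.

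The cells were HEK293T, an established human embryonic kidney line that takes up plasmids readily. All samples carry the same treatment text, a polyethylenimine transfection of dCas13b-M14 with a guide RNA followed by harvest after 24 h, so how the group titled Ctrl differed from the group titled Cas is not stated in the labels. The series' design text names directed methylation of positions in YTHDF2, SPEN and GAPDH. m6A was measured by MeRIP-seq, in which polyadenylated RNA (10 ug) was fragmented to 100 to 300 nucleotides and pulled down with an m6A antibody. Each group had 1 input and 1 immunoprecipitation library. The peak lists of the immunoprecipitations were used, so each difference below is between 2 libraries, has no replicate check and was not tested.

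The lists hold positions along transcripts and no counts, scores or p-values, so depth is unknown. A gene without a listed peak may be unmethylated, weakly expressed or below the caller's threshold, and these cannot be told apart. All 6 markers of the HEK293T lineage (PAX2, LHX1, NEFM, NEFL, VIM and KRT18) had a peak in at least 1 list, but no more than 4 of them in Cas. Of 14 markers of blood, liver, muscle, endothelium and fibroblasts only COL1A1 had one. A peak is not a measure of expression, so this is a coarse check of the label.

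The sequences below are coding stretches under peaks, read 5' to 3' from the GENCODE release 29 transcript paired with each RefSeq transcript (GRCh38). The first 6 are parts covered in both libraries, shown as examples of recurring peaks for each gene that had a coding stretch of this kind, and further such stretches of NOTCH2 and MAML1 are not printed. The last 2 are peaks of the Ctrl list alone, MAML2 because it lies at the place aligned with the last MAML1 stretch, and NOTCH3 because no Cas peak overlaps it. Capitals mark DRACH, the usual m6A context, which is A, G or T, then A or G, then A, C, and A, C or T, searched on the transcript strand.
NOTCH2 6421 to 6589, chr1:119916353-119916521, minus strand: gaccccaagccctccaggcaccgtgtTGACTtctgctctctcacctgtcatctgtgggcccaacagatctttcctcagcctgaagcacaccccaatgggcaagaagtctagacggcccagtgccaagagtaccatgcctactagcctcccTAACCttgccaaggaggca
JAG1 3944 to 4044, chr20:10639580-10639680, minus strand: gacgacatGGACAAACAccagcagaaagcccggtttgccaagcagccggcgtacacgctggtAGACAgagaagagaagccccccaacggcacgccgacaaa
JAG2 3951 to 4086, chr14:105142730-105142865, minus strand: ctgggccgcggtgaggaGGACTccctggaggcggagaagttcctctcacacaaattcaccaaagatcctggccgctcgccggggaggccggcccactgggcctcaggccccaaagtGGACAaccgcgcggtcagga
HES1 1029 to 1079, chr3:194138183-194138233, plus strand: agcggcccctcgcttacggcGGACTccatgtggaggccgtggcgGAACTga
MAML1 878 to 1161, chr5:179765625-179765908, plus strand: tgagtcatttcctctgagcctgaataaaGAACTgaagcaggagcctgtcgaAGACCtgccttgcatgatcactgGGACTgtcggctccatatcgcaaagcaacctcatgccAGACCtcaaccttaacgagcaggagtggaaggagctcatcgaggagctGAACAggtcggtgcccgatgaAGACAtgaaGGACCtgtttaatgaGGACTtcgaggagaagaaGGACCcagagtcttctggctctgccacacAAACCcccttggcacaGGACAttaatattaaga
MAML1 3181 to 3300, chr5:179774744-179774863, plus strand: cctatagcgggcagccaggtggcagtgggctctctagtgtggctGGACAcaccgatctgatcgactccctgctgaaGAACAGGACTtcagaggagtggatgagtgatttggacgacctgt
MAML2 4658 to 4756, chr11:95978948-95979046, minus strand: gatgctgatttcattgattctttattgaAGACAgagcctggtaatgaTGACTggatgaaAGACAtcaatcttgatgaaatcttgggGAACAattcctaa
NOTCH3 5991 to 6095, chr19:15161609-15161713, minus strand: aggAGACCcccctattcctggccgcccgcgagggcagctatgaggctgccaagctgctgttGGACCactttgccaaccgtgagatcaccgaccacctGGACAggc
The MAML1 stretch of 284 nt held 11 DRACH motifs, 2 of them GGACT, a frequent form of the motif. The HES1 stretch ends with the stop codon and held 2, 1 of them GGACT. The 169 nt of NOTCH2 held only 2 and no GGACT. These letters are a description of the stretch, and the methylated base within it is not known from the lists.

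Sharing was counted peak by peak. An overlap of at least 1 nt on the same transcript was found for 12 of 21 Ctrl peaks (57.1%, Wilson 95% interval 36.6 to 75.5), against 75.8% of the whole Ctrl list, a level just outside the interval. For Cas it was found for 12 of 19 (63.2%, 41.0 to 80.8), against 78.0% of the whole Cas list, a level inside it. The intervals here and below cover the counting of peaks only. They take peaks of the same gene as independent and so can be too narrow. A level just outside an interval is therefore no sign of a difference. The unshared peaks sat on NOTCH2, NOTCH3, MAML2 and MAML3 in Ctrl and on NOTCH2, NOTCH3, MAML1 and NUMB in Cas. When peaks lying on a 10-base grid, described further on, were dropped, the Cas share was 83.3% of 12 peaks. Among the wider 50% of both lists it was 36.4% of 11 peaks.

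**Figure D1:**
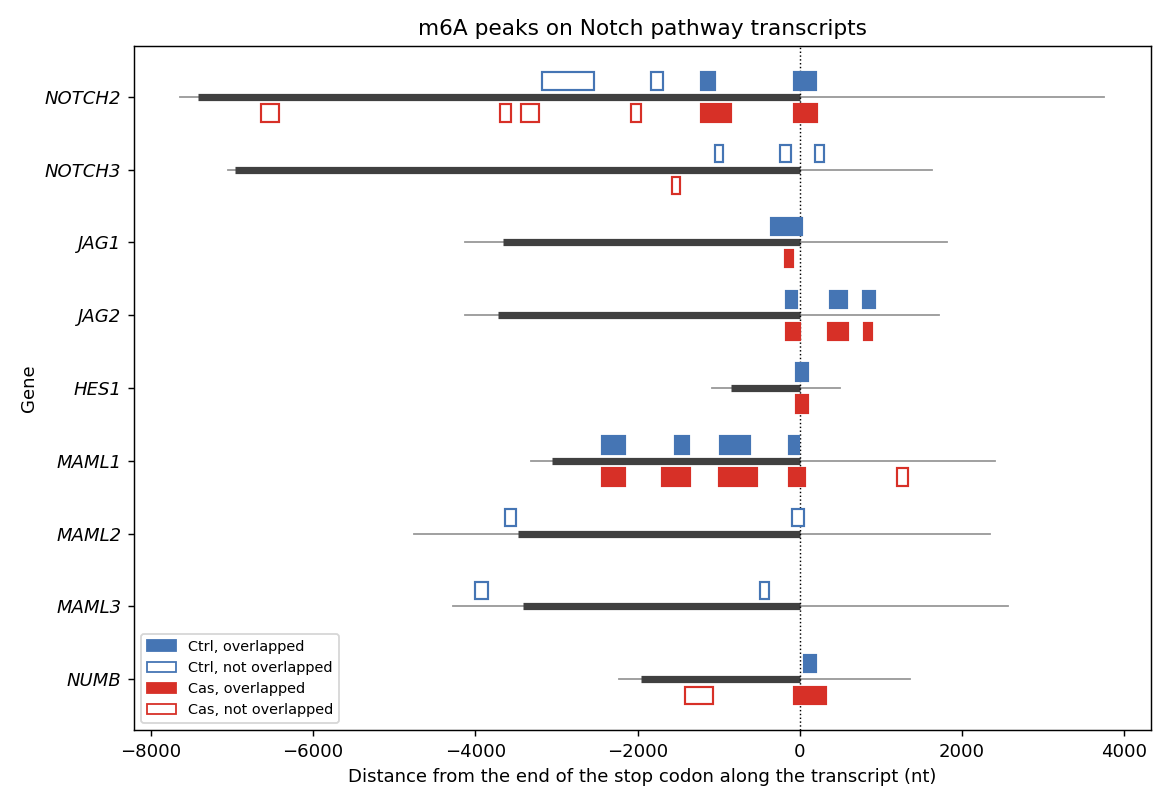
Peaks on the 9 transcripts, by distance from the end of the stop codon in nt, with the coding sequence as a thick bar and the UTRs as a thin line. Ctrl peaks stand above and Cas peaks below each transcript, filled where a peak of the other library overlaps; the shared peaks of JAG1, JAG2, HES1 and NUMB stand close to the stop codon or after it, and NOTCH3, MAML2 and MAML3 have open boxes only.

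By gene, 7 of the 9 had peaks in both libraries, where 85.4% of all genes with a peak did. MAML2 and MAML3 had peaks in Ctrl only (9.94% of all genes), and none of the 9 in Cas only (4.64%). More peaks in Cas were listed for NOTCH2, MAML1 and NUMB (25.3% of all genes), and more in Ctrl for NOTCH3, MAML2 and MAML3 (27.1%). JAG1, JAG2 and HES1 had equal numbers (47.6%).

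Of the receptors, NOTCH2 (chr1:119911553-120069662, transcript NM_024408) had 4 peaks in Ctrl and 6 in Cas. The Ctrl peaks spanned positions 4463 to 5099, 5801 to 5950, 6414 to 6589 and 7569 to 7836. The Cas peaks spanned 991 to 1220, 3941 to 4080, 4205 to 4421, 5561 to 5680, 6421 to 6785 and 7569 to 7844. Only the last 2 of each list overlapped, and the peak over the stop codon began at the same base in both and ended 8 nt apart. The Ctrl peak of 637 nt was the widest of all member peaks and held 19 DRACH motifs. The nearest Cas peak ended 42 nt before it. That gap is shorter than the RNA fragments (100 to 300 nt), so whether the 2 peaks are separate sites cannot be told. The Cas peak at 991 to 1220 lay 3243 nt from any Ctrl peak. Together the peaks covered 1231 nt in Ctrl and 1348 nt in Cas, of which 437 nt were common.

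The NOTCH2 peaks were also placed by the receptor part they encode. The most hydrophobic stretch of 21 codons after the start of the protein, taken as the membrane segment, fell at codons 1678 to 1698 of 2471. The peak shared at 6421 to 6589 covered codons 2067 to 2123, in the intracellular part that becomes the nuclear cofactor. The shared peak over the stop codon began at codon 2450 and lay mostly in the 3' UTR, with its centre 66 nt past the stop codon in Ctrl and 70 nt past it in Cas. The Ctrl peak at codons 1415 to 1627 and the Cas peaks at codons 257 to 334, 1241 to 1287 and 1329 to 1401 lay in the extracellular part, which binds ligand. The remaining unshared peaks, at codons 1861 to 1910 in Ctrl and 1781 to 1820 in Cas, were intracellular like the shared coding peak.

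NOTCH3 (chr19:15159038-15200995, NM_000435), a receptor best known from vascular smooth muscle, had 3 peaks in Ctrl, at 5991 to 6095, 6799 to 6937 and 7231 to 7344. In Cas it had 1, at 5461 to 5560. None overlapped, and the Cas peak lay 431 nt from the nearest Ctrl peak. How many of all genes with peaks in both libraries had no overlapping peak was not counted. Widths were 105, 139 and 114 nt in Ctrl and 100 nt in Cas, where 100 nt is the narrowest width listed in either library. All coding peaks of NOTCH3 lay after its membrane segment (codons 1644 to 1664), at codons 1972 to 2007 and 2241 to 2287 in Ctrl and 1795 to 1828 in Cas. The 7231 to 7344 peak was in the 3' UTR, with its centre 245 nt past the stop codon.

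The ligands had peaks at overlapping places in both libraries. JAG1 (chr20:10637684-10673999, NM_000214), the ligand mutated in Alagille syndrome, had 1 peak in each library, at 3770 to 4157 in Ctrl and at 3944 to 4044 in Cas. The Cas peak lay wholly inside the Ctrl peak, which reached over the stop codon and was 388 nt wide against 101 nt. It covered codons 1159 to 1192 of 1218, in the short cytoplasmic tail after the membrane segment at codons 1068 to 1088. The wider Ctrl peak held 19 DRACH motifs and the Cas peak 3, with no GGACT in either.

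JAG2 (chr14:105140995-105168776, NM_002226), a second Jagged ligand, had 3 peaks in each library, and all 3 overlapped. They lay at 3948 to 4086, 4488 to 4706 and 4905 to 5041 in Ctrl, and at 3951 to 4120, 4467 to 4709 and 4909 to 5008 in Cas. The first pair again covered the cytoplasmic tail, from codon 1182 in Ctrl and 1183 in Cas, and the others lay in the 3' UTR. Of the bases covered in either library, 82.3% were covered in both, against 26.0% for JAG1. This share was not computed over all genes, so its values here and below have no level beside them.

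HES1 (chr3:194136148-194138732, NM_005524), a transcriptional repressor and a direct target of the pathway, was the most alike between the libraries. Its only peak ran from 1027 to 1183 in Ctrl and from 1029 to 1185 in Cas, 157 nt wide in both. Both ends differed by 2 nt, and 97.5% of the bases covered in either list were covered in both. The peak lay over the stop codon, with 3 GGACT motifs.

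**Figure D2:**
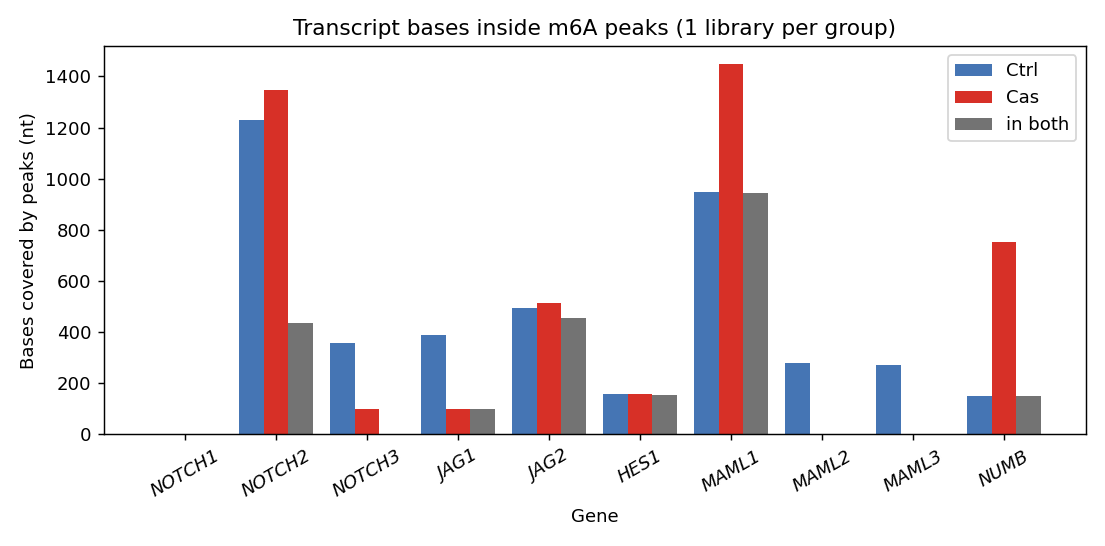
Transcript bases inside peaks for each of the 10 genes in Ctrl, in Cas and in both libraries, with 1 library per group and no error bar. MAML1 and NOTCH2 have the most bases, HES1 and JAG2 nearly equal bars, and NOTCH3, MAML2 and MAML3 no base in both. The same values over all genes were not computed.

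The Mastermind-like coactivators had different numbers of peaks and of overlaps. MAML1 (chr5:179732822-179777283, NM_014757) had 4 peaks in Ctrl, at 878 to 1163, 1780 to 1952, 2336 to 2704 and 3180 to 3300. All 4 overlapped a Cas peak, at 871 to 1161, 1617 to 1956, 2316 to 2790 and 3181 to 3380. A further Cas peak, at 4511 to 4651 in the 3' UTR, lay 1211 nt from any Ctrl peak. The first pair differed by 7 nt at the start and 2 nt at the end. The bases covered were 949 nt in Ctrl and 1447 nt in Cas, and 946 nt of them were common, so nearly every Ctrl base was also covered in Cas.

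MAML2 (chr11:95976598-96343195, NM_032427), known as a fusion partner in mucoepidermoid carcinoma, had 2 Ctrl peaks and no Cas peak. They lay at 1124 to 1260 in the 5' UTR and at 4658 to 4801 over the stop codon, 137 and 144 nt wide. MAML3 (chr4:139716753-140154184, NM_018717) also had 2 in Ctrl and none in Cas, at 271 to 430 in the 5' UTR and at 3781 to 3890 in the coding sequence. Among the 9 genes these were the only peaks in a 5' UTR, 2 of 21 in Ctrl against 4.19% of all Ctrl peaks with a transcript model, and 0 of 19 in Cas against 3.64%. No expression values were used here, so the part of transcript level in the missing Cas peaks was not tested.

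NUMB (chr14:73275216-73458546, NM_001005743) had 1 peak in Ctrl, at 2279 to 2427 just after the stop codon. In Cas a peak at 2151 to 2554 contained it, 404 against 149 nt wide, and a second Cas peak at 811 to 1160 in the coding sequence had no Ctrl partner within 1119 nt. The centres of the overlapping peaks were 2353 and 2352. The bases covered were 149 nt in Ctrl and 754 nt in Cas.

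Most shared peaks of these genes lay in the last exon. Over all member peaks, 15 of 21 centres in Ctrl (51.2% of all peaks) and 11 of 19 in Cas (48.6%) were there. Among shared peaks it was 10 of 12 in Ctrl (interval 55.2 to 95.3), where 50.4% of all shared Ctrl peaks, a level below it, were. In Cas it was also 10 of 12 (49.9%). These are the same 12 pairs read from each list, so the 2 counts are 1 observation. The exceptions were the first 2 MAML1 pairs, in its second exon of 1416 nt. Of the unshared peaks, 5 of 9 in Ctrl (53.9% of all such peaks) and 1 of 7 in Cas (43.9%) were in the last exon. The last exon was also the longest in each of the 9 transcripts, from 1050 nt in HES1 to 5142 nt in NOTCH2. Exons over 400 nt held 19 of 21 Ctrl peak centres (interval 71.1 to 97.4), where 67.6% of all, a level below it, were. In Cas it was 14 of 19 (interval 51.2 to 88.2), with the level of all peaks, 64.3%, inside it.

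By region, 8 of 21 peaks of Ctrl (38.1%, interval 20.8 to 59.1) were centred within 200 nt of the stop codon, where 22.9% of all were. In Cas it was 6 of 19 (31.6%, interval 15.4 to 54.0), where 22.0% of all were. The coding sequence outside that window held 8 in Ctrl and 10 in Cas (50.1% and 52.2% of all), and the 3' UTR 3 and 3 (22.8% and 22.2%). With no window for the stop codon, the coding share of Ctrl was 61.9%. The whole-list levels lay inside the members' intervals for each of these regions.

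DRACH was found in all 21 Ctrl and all 19 Cas peaks, where 97.3% and 97.1% of all peaks held it. GGACT was in 9 Ctrl peaks (42.9%, interval 24.5 to 63.4) and in 8 Cas peaks (42.1%, interval 23.1 to 63.7), against 27.5% and 25.7% of all peaks, levels inside these intervals. Peak width affects such counts, so windows of equal length, 50 nt to either side of each centre, were also read. GGACT was then in 8 of 21 Ctrl windows (15.2% of all) and in 5 of 19 Cas windows (14.2% of all). No interval was computed for these windows in either library. Per kilobase, GGACT occurred 3.27 times inside Ctrl peaks of these genes and 0.802 times in the rest of the same transcripts, and 2.71 and 0.809 times in Cas. Over all peaks and transcripts these numbers were 1.496 and 0.891 in Ctrl and 1.41 and 0.894 in Cas. The members' values rest on few genes, with 14 GGACT motifs in Ctrl peaks and 12 in Cas peaks. The HES1 peak held 3 in each library, and each of the first 2 MAML1 peaks held 2. Peaks of NOTCH3, JAG1, MAML2 and NUMB held none. The HES1 and MAML1 motifs lay in shared peaks, so the 2 libraries count many of the same motifs.

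Related members were set side by side through alignments of the encoded proteins. JAG1 and JAG2 (55.9% of 1193 aligned codons identical) both had their coding peaks in the cytoplasmic tail: JAG1 codons 1159 to 1192, the Cas peak, align with JAG2 codons 1181 to 1211, which both first JAG2 peaks overlap. Only 19.4% of those aligned codons were identical. The last coding peak of MAML1, codons 973 to 1013 in Ctrl, aligns with MAML2 codons 1109 to 1152 and so with the MAML2 peak at the stop codon. No MAML3 peak lay at the aligned codons 1095 to 1135. The 3 upstream MAML1 peaks of each library had no counterpart in MAML2 or MAML3.

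NOTCH2 and NOTCH3 (56.2% of 2208 aligned codons identical) had partly aligned peaks near the stop codon. There NOTCH3 codons 2241 to 2287 of the Ctrl peak align with NOTCH2 codons 2411 to 2458, and the NOTCH2 peaks began at codon 2450. Under the NOTCH3 peak 55.3% of 47 aligned codons were identical, and under the NOTCH2 peaks only 18.2% of 22. The NOTCH3 Cas peak at codons 1795 to 1828 aligns with NOTCH2 codons 1834 to 1866, at the edge of the Ctrl peak there. The Ctrl peak of NOTCH3 at codons 1972 to 2007 aligns with NOTCH2 codons 2010 to 2045, 91.7% identical, where NOTCH2 had no peak in either library. No run of 50 nt inside any member peak occurred in a GENCODE release 29 transcript of another gene, and no member peak lay over an exon of another gene in the annotation.

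The ends of overlapping member peaks were compared between the libraries. Over the 12 pairs the starts differed by a median of 7 nt (0 to 174) and the ends by a median of 33.5 nt (2 to 196), beside medians of 20 and 20 nt over all 17328 pairs in which 1 Ctrl peak and 1 Cas peak overlap only each other. Starts were within 10 nt in 7 of 12 pairs (35.0% of all pairs) and ends in 5 (37.1%). The large differences were at NOTCH2, JAG1, MAML1 and NUMB, where 1 library's peak was much wider. Shared peaks had median widths of 174.5 nt in Ctrl and 259.5 nt in Cas (211 nt and 201 nt for all shared peaks), and unshared peaks 139 and 141 nt (144 and 149 nt for all).

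Some peaks had both ends on a 10-base grid, with a first position ending in 1 and a last position ending in 0. In Ctrl 3 of 21 member peaks did (27.2% of all) and in Cas 7 of 19 (28.9%). This held for 5 of 7 unshared Cas peaks (49.6% of all unshared Cas peaks), namely 3 on NOTCH2 and those on NOTCH3 and NUMB. It held for 3 of 9 unshared Ctrl peaks (50.2% of all), 1 on NOTCH2 and both on MAML3. Among shared peaks it held for 0 of 12 in Ctrl (19.9% of all) and 2 of 12 in Cas (23.1% of all). Without such peaks NOTCH2 had 3 and 3 peaks in Ctrl and Cas, MAML1 4 and 4, NUMB 1 and 1, NOTCH3 3 and 0, JAG2 3 and 2, MAML2 2 and 0, JAG1 and HES1 1 and 1 each, and MAML3 none. No member then had more peaks in Cas. What gives rise to the grid was not tested.

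Other pathway genes were read from a list of 53, of which 52 were matched by name and 1 was not analysed here. Of the 52, 35 had a peak, 29 in both libraries (85.4% of all genes with a peak), 4 in Ctrl only (9.94%) and 2 in Cas only (4.64%). Of their peaks, 76 of 94 in Ctrl (75.8% of the whole list) and 74 of 89 in Cas (78.0%) overlapped a peak of the other library. Numbers were higher in Cas for 11 genes (25.3% of all), higher in Ctrl for 11 (27.1%) and equal for 13 (47.6%). These counts were near the levels of the whole lists.

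By role, 13 of 14 nuclear factors had peaks, 7 of 8 cleavage enzymes, 7 of 13 genes of ubiquitin ligation and endocytosis, 3 of 5 glycosyltransferases, 2 of 3 Delta-like ligands and 3 of 8 targets. The receptor NOTCH4 had none. The share of all annotated genes with a peak was not counted. Neither these counts nor 35 of 52 can therefore be called high or low. The genes with most peaks were the acetyltransferase CREBBP (7 in Ctrl and 7 in Cas), the corepressor NCOR1 (6 and 6), SPEN (7 and 5), which represses targets with RBPJ and is a targeted gene of the study, the ligase MIB1 (7 and 5), which drives ligand endocytosis, and the acetyltransferase EP300 (5 and 5). All Ctrl and Cas peaks of CREBBP, NCOR1 and EP300 overlapped.

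The pathway genes with peaks in Ctrl only were the ligand DLL4 (1 peak of 121 nt), the gamma-secretase subunit APH1B (2 peaks, 101 and 170 nt), the ubiquitin ligase DTX2 (2 peaks, 100 and 155 nt) and the acetyltransferase KAT2B (2 peaks, 133 and 100 nt). In Cas only they were the glycosyltransferase RFNG (1 peak of 210 nt) and the repressor HEY2 (1 peak of 100 nt). The HEY2 peak lay on the 10-base grid, as did the 170 nt APH1B peak and the 100 nt peaks of DTX2 and KAT2B. Without grid peaks HEY2 had none, and 26 pathway genes had peaks in both libraries, 5 in Ctrl only and 3 in Cas only. RBPJ, named here after its values were seen, had 3 peaks in Ctrl and 4 in Cas, and all 3 Ctrl peaks overlapped. The ligand DLL1, also outside the rule by which the other genes here are named, had 1 peak in each library, with no overlap.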

How the data were processed

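HEK293T cells were measured by MeRIP-seq, with 1 immunoprecipitation and 1 input library in each of the groups Ctrl and Cas. Per the submitters' processing notes FastQC, fastp, HISAT2, SAMtools, edgeR and HOMER and the build GRCh38 were used; those sources give no version, role, peak caller, threshold or transcript release. The deposited lists give the first and last position of each peak along a RefSeq transcript, counted from 1, and a further position inside it whose meaning is not stated. Their only unit is position in nt.

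Gene names came from a RefSeq table of GRCh38.p14. It named no gene for 579 Ctrl and 589 Cas peaks, which stayed in the totals of peaks. Overlaps were counted directly, after a test of that count on simulated peaks, and the whole-list counts equalled those of bedtools 2.31.1. Wilson 95% intervals were computed with scipy 1.17.1. Regions, exons and sequences were read on the GENCODE release 29 partner of each transcript. The RefSeq gene began from 48 nt downstream to 36 nt upstream of the partner's start in the 9 genes, so codons and motif places carry that uncertainty. Whole-list values for regions use 18123 Ctrl and 17826 Cas peaks with a coding partner that holds every peak of its transcript. Proteins were aligned with Biopython 1.88 (BLOSUM62).

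The members and lists were chosen with earlier results of these data known. All member genes are named, and of the pathway list those with peaks in 1 library and the 5 with most peaks. RBPJ, DLL1 and NOTCH4 are named outside this rule. No test between groups was made, since each had 1 library. Alternatives covered overlap rules, wider peaks, merged peaks, grid peaks, region and motif rules and the moved transcript start.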

Additional observations from a re-analysis of the deposited data

How the results depend on the processing

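No paired analysis was possible because there is only 1 library in each group, and none could be left out. Alternatives that moved the transcript start or read GGACT near the centre were chosen after seeing the data. The shared part of the member peaks ranged from 42.9% to 66.7% in Ctrl, within the interval of 57.1%. In Cas it was 36.4% with the wider 50% of both lists and 83.3% without grid peaks, both outside the interval of 63.2%, and from 47.4% to 63.2% otherwise. The wider 50% leaves fewer peaks by construction: 6 in Ctrl and 11 in Cas, with 1 member having more in Ctrl and 3 members in both libraries. Without grid peaks Cas had 12 peaks and 0 members had more in Cas. No stop codon window gave 61.9% of Ctrl peaks in the coding sequence. GGACT in place of DRACH was in 42.9% of Ctrl and 42.1% of Cas peaks, and within 50 nt of the centre in 38.1% and 26.3%. With the wider peaks 2 other pathway genes were in Ctrl only. Moving positions by the start difference left every region count as it was and DRACH in 95.2% and 94.7% of peaks. The total was higher in Ctrl in the full lists (21 against 19) and higher in Cas with the wider 50% (6 against 11). For no single member did the order of Ctrl and Cas turn around under these alternatives, although some differences came to 0 or away from it. Of the values over all members or pathway genes, 49 stayed within their interval or 1.5 times and 14 did not. Among the 14 are the GGACT values, which were judged against the DRACH interval. GGACT is 1 form of DRACH, so these values could only stay or fall. Dropping the stop codon window could likewise only keep or raise the coding share. Of the differences for single members, 15 stayed the same and 12 moved. Merging peaks within 100 nt joined no member peaks and left 21 in Ctrl and 19 in Cas. Its values therefore stayed the same by construction, and they raise the unchanged part of both tallies.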
